A study of Mus musculus with 6 samples.

Results

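H2A.Z AP3 embryoid bodies (EBs) were compared with EBs of the line labelled H2A.Z KD after 3 days of differentiation, and 760 of the 11943 genes tested differed by more than 1.5-fold (6.36%). Of these, 388 were higher in H2A.Z AP3 (3.25%) and 372 were lower (3.11%). Past 2-fold were 154 genes (1.29%), 71 higher (0.594%) and 83 lower (0.695%). The genes tested were those of the 21639 entries in the expression table with at least 1 RPKM (reads normalised to transcript length and to the mapped reads of the library) in either library, and 9696 entries lay below 1 RPKM in both. The comparison asks what the mutant protein adds beyond the hairpin that both lines carry. Each line and day is represented by 1 library, so no difference given here has a replicate error and no p-value was computed.

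H2A.Z is a variant of histone H2A that is placed by SRCAP- and p400-type remodelling complexes at promoters and enhancers, and mouse embryos without it die early. The acidic patch is a negatively charged surface of the nucleosome formed largely by the H2A-type histones, to which chromatin proteins and the tail of histone H4 bind. EBs are aggregates of embryonic stem cells (ESCs) that differentiate once leukaemia inhibitory factor is withdrawn, and their outer layer commonly becomes extraembryonic endoderm resting on a basement membrane. Visceral endoderm takes up maternal nutrients by endocytosis and secretes lipoproteins and carrier proteins, whereas parietal endoderm secretes much basement membrane matrix.

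All 3 lines were mouse ESCs labelled with the V6.5 strain and were described in the protocols as KH2 ESCs. In H2A.Z KD cells a short hairpin RNA is made whose target lies in the 3′ untranslated region (UTR) of H2afz, the gene of H2A.Z. H2A.Z AP3 cells carry a hairpin and a doxycycline-inducible, YFP-tagged H2A.Z transgene with the substitutions G92N, D97N and S98K, counted along H2A.Z, in which 3 residues take their identity in H2A. H2A.Z WT cells carry a hairpin and the wild-type form of the same transgene, and their EBs are given beside the pair compared. The transgenes were driven by a CMV promoter under rtTA control with 1 µg/ml doxycycline, and YFP-positive cells were sorted. The study's methods describe placing the hairpins in transgenic lines. The sources used here do not state which hairpin or how many clones were sequenced, nor whether the KD cells sequenced held such a transgene, uninduced, or had been sorted, so sorting and transgene cannot be told apart from the mutation in this pair. ESCs were kept on feeder fibroblasts until the final passage, and EBs formed on non-adherent plates.

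The hairpin targets are shown because they define what the lines share. The study lists 2 of them, and each was located by exact match to H2afz-001, the 1069-base transcript of H2afz, whose 3′ UTR runs from base 595 to base 1069. Both matches lie on the + strand of chromosome 3 (mm9) in exon 5 of 5, at chr3:137529455-137529475 for sh#2 and at chr3:137529551-137529571 for sh#5. The hairpins are numbered sh#2 and sh#5 here, and the study's methods text numbers the same sequences sh#1 and sh#2, in that order. Neither sequence occurs in a coding transcript of another gene, and both are written 5′ to 3′ in the sense direction, with no base marked.
sh#2: aacagctgtccagtgttggtg
sh#5: aattagccttccaaccaacca

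H2afz itself was at 394 RPKM in H2A.Z AP3 EBs, 258 in H2A.Z WT EBs and 236 in EBs of the line labelled H2A.Z KD, a log2 ratio of 0.73 for the pair compared. In ESCs it was at 304, 279 and 343 RPKM in the same order, so the KD library did not hold the lowest level there. Coding reads from a transgene and from the endogenous gene fall on the same exons, and the hairpin is present in all 3 lines. These levels therefore do not measure depletion of endogenous H2A.Z, and the second line is called KD-labelled below. H2afv, which encodes the other H2A.Z isoform, was at 63.3 RPKM in H2A.Z AP3 EBs and 56.4 in KD-labelled EBs. Of 16 genes for H2A.Z and its exchange complexes, H2afz was the single one past 1.5-fold, which is 6.25% of the list against 6.36% of all genes.

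Log2 ratios were computed as log2((RPKM + 1)/(RPKM + 1)), which understates the change of low genes, and fold values were computed from the RPKM without a pseudocount. Across the 11943 genes the median log2 ratio was 0.02, the lowest decile lay below −0.35 and the highest decile above 0.38. Depth was inferred from the spacing of the lowest RPKM values and came to 20.6 M reads for H2A.Z AP3 EBs and 23.2 M for KD-labelled EBs. On a transcript of 2 kb, 1 read was then worth 0.0243 and 0.0216 RPKM. The share of genes past 1.5-fold fell from 24.8% where the mean of the pair was under 1 RPKM, through 9.55% between 1 and 3 RPKM, to 4.35% between 10 and 30 RPKM. Small RNA entries, which a poly(A) library recovers poorly, passed in 73 of 133 cases and are not named below. Of the higher genes 103 lay below 1 RPKM in KD-labelled EBs, and of the lower genes 85 lay below it in H2A.Z AP3 EBs. Such genes entered only through the library in which they were high, so their inclusion depended on the difference itself. For the main lists that hold such genes, counts are therefore also given with the filter set on the other 4 libraries, whose average had to reach 1 RPKM, and under it 3.08% of all genes were higher and 2.55% lower. At the upper threshold Rraga (51.3 against 33.9 RPKM) lay just inside and Pir (21.7 against 14.2) just outside, and at the lower one Fgf11 (1.71 against 3.07) lay just inside and Smg1 (9.09 against 14.1) just outside.

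**Figure D1:**
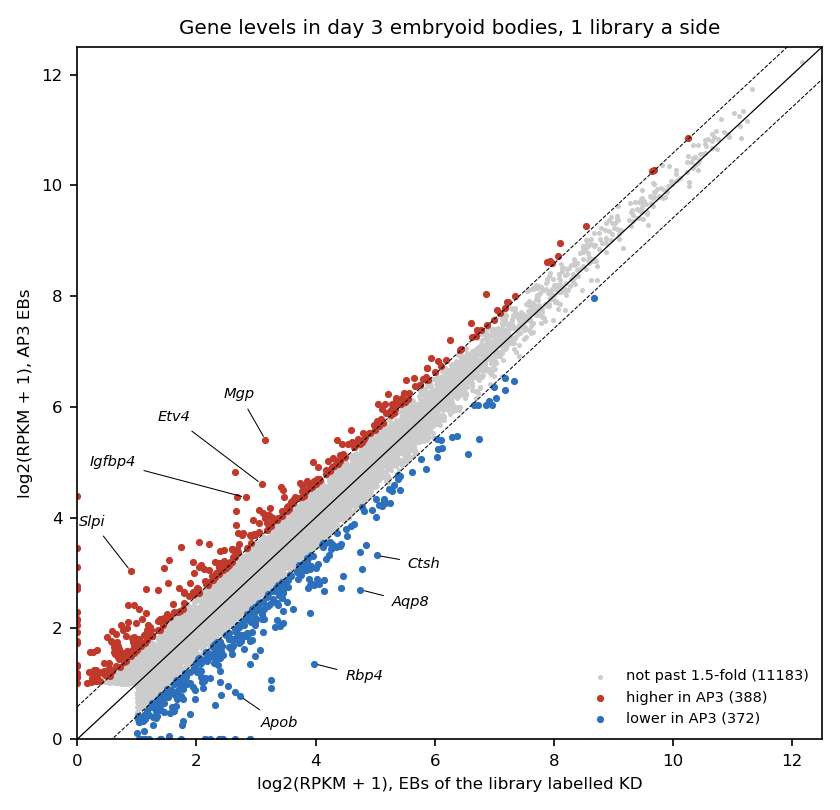
Level of each of the 11943 genes tested in KD-labelled EBs (x axis) and H2A.Z AP3 EBs (y axis), as log2(RPKM + 1), with 1 library a side. The solid line marks equal levels and the dashed lines 1.5-fold; 388 genes lie above the upper dashed line, among them Mgp and Etv4, and 372 below the lower one, among them Rbp4 and Aqp8.

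The 15 genes lowest in H2A.Z AP3 EBs relative to KD-labelled EBs were led by products of the visceral endoderm. Rbp4, the retinol carrier of the blood, was at 1.57 RPKM in H2A.Z AP3, 14.7 in KD-labelled and 3.16 in H2A.Z WT EBs. Its level was 9.36-fold lower in H2A.Z AP3 than in KD-labelled EBs (95% exact binomial counting interval 6.62 to 13.7), and the gene lies on chromosome 19 (mm9, chr19:38191110-38199811, − strand). Apoa1, the main protein of high-density lipoprotein, was at 0.896, 8.57 and 1.32 RPKM in the same order. Ttr, the thyroid hormone carrier, was at 1.10, 8.57 and 1.81 RPKM, and Apob, which lipoprotein particles are built on, was at 0.714, 5.62 and 0.904 RPKM. All 4 were high in the KD-labelled library alone, and H2A.Z WT EBs lay nearer to H2A.Z AP3. Afp, the fetal counterpart of albumin, was at 0.192 RPKM in H2A.Z AP3, about 8 reads, 2.38 in KD-labelled and 0.633 in H2A.Z WT EBs. Apoa1, Apob and Afp lay below 1 RPKM in H2A.Z AP3 EBs and entered through the KD-labelled library alone. The counting intervals rest on reads estimated from RPKM, depth and transcript length, and they cover counting error only, because the reads carry no molecular identifiers.

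The other members of these 15 encode channels, proteases and enzymes. Aqp8, a water channel, was at 5.49 RPKM in H2A.Z AP3, 25.9 in KD-labelled and 11.4 in H2A.Z WT EBs (4.73-fold lower in H2A.Z AP3, interval 3.97 to 5.68). Ctsh, a lysosomal protease, was at 8.97, 31.5 and 11.01 RPKM in the same order, and the transmembrane protease gene Tmprss2 was at 0.813, 5.28 and 1.31 RPKM. Cyp26a1, which degrades retinoic acid, was at 3.82 RPKM in H2A.Z AP3, 14.0 in KD-labelled and 4.06 in H2A.Z WT EBs. S100a1, a calcium-binding protein gene, was at 7.39, 26.3 and 19.3 RPKM, and is 1 of 2 genes of the 15 whose H2A.Z WT level lay nearer to the KD-labelled one. Clic6, Prss12, Lrrc51, Muc13 and Slco2a1 complete the set, at log2 ratios between −1.50 and −2.61 for all 15.

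The 15 genes highest in H2A.Z AP3 EBs relative to KD-labelled EBs included transcription factors, secreted proteins and genes of contractile and vascular cells. Mgp, an inhibitor of calcification in cartilage and vessel wall, was at 41.3 RPKM in H2A.Z AP3, 7.93 in KD-labelled and 14.8 in H2A.Z WT EBs (5.21-fold higher in H2A.Z AP3, interval 4.23 to 6.46; mm9, chr6:136820956-136824326, − strand). Slpi, a secreted protease inhibitor, was at 7.16, 0.866 and 5.42 RPKM in the same order. Tagln, an actin-binding protein of smooth muscle, was at 8.41, 1.90 and 2.80 RPKM. Etv4, an ETS transcription factor induced by fibroblast growth factor (FGF) signalling, was at 23.4, 7.53 and 8.62 RPKM (3.10-fold higher in H2A.Z AP3, interval 2.50 to 3.87; mm9, chr11:101631056-101646624, − strand). H2A.Z AP3 EBs held the highest of the 3 levels in each of these, and H2A.Z WT EBs lay near H2A.Z AP3 for Slpi and nearer to KD-labelled EBs for the other 3.

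Igfbp4, which binds insulin-like growth factors, was at 19.6 RPKM in H2A.Z AP3, 6.09 in KD-labelled and 11.7 in H2A.Z WT EBs. Cebpd, a transcription factor of acute responses, was at 5.54, 1.23 and 2.71 RPKM in the same order, and Ptgs2, the inducible cyclooxygenase, was at 2.85, 0.506 and 1.01 RPKM. Sox18, a transcription factor of endothelium, was at 1.99 RPKM in H2A.Z AP3, 0.200 in KD-labelled EBs, about 8 reads, and 0.206 in H2A.Z WT EBs. Ltb, Tm4sf1, Nrn1, Cd34, Pkdcc and Anxa1 were also among the 15, as was the entry for Prl2c3 and Prl2c4, near-identical copies whose reads cannot be assigned to either. The log2 ratios of the 15 ran from 1.31 to 2.24.

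For the 15 lowest genes H2A.Z WT EBs lay between the pair in 15 and nearer to H2A.Z AP3 in 13. For the 15 highest they lay between in 14 and nearer to the KD-labelled line in 13. The genes were picked as the extremes of the AP3 and KD-labelled libraries, so an H2A.Z WT value between them is given as a description only.

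**Figure D2:**
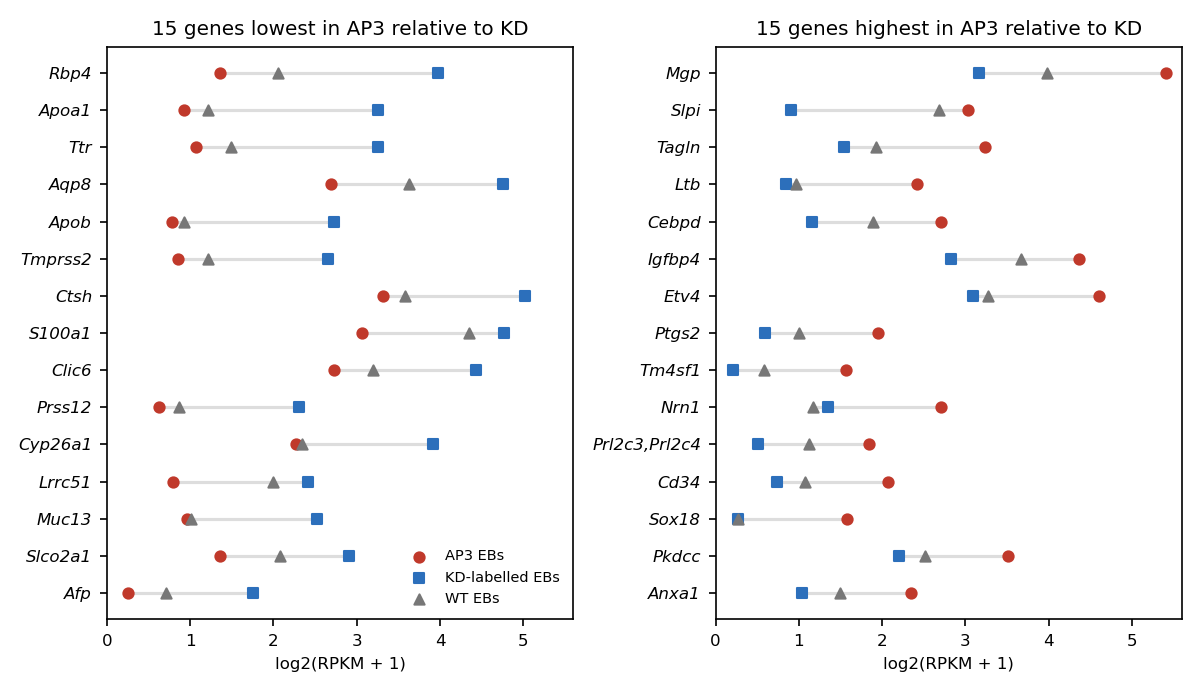
Levels as log2(RPKM + 1), x axis, of the 15 genes lowest (left) and the 15 highest (right) in H2A.Z AP3 relative to KD-labelled EBs; circles are H2A.Z AP3, squares KD-labelled and triangles H2A.Z WT EBs, 1 library each. In the left panel the triangle lies nearer to the circle for 13 genes, and in the right panel nearer to the square for 13 genes.

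Genes that visceral and parietal endoderm use for uptake and secretion were mostly lower in H2A.Z AP3 EBs. Of 34 such genes 29 were tested, 24 were lower, 1 was higher and 4 were not past 1.5-fold. Their median log2 ratio was −0.92, with a 95% interval over genes of −1.44 to −0.83, against 0.02 over all genes. Of the 24, 5 (Afp, Apoa1, Apoa4, Apob and Apoc2) entered through the KD-labelled library alone. With the filter on the other 4 libraries 15 of 21 were lower and 1 was higher (median −0.83). This and the following intervals are for the median over genes, taken as independent, within 1 pair of libraries. The effector genes themselves ran from −2.61 to 0.71. In bulk samples fewer cells of a type and less RNA per cell cannot be told apart.

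Among the transcription factors that lead endoderm formation, 10 of 14 were tested, 3 were lower, none was higher and the median was −0.55 (interval −0.75 to −0.32). With the filter on the other 4 libraries, which drops Hnf4a, 2 of 8 were lower. Hnf4a, which controls visceral endoderm secretory genes, was at 1.135 RPKM in H2A.Z AP3, 3.68 in KD-labelled and 1.32 in H2A.Z WT EBs. Gata4, needed for formation of the endoderm layer, was at 13.3, 23.2 and 13.7 RPKM in the same order, and Foxa2 was at 1.94, 3.45 and 2.50 RPKM. Gata6 and Sox17 did not pass 1.5-fold, at 12.3 against 17.4 and 4.96 against 7.75 RPKM. Hhex lay on the other side, at 6.00 against 5.39 RPKM. The KD-labelled EBs thus held the higher level for each of these genes except Hhex.

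Of the genes for endocytosis in the effector list, Cubn, the cubilin receptor, was at 34.6 RPKM in H2A.Z AP3, 93.3 in KD-labelled and 26.2 in H2A.Z WT EBs, a 2.70-fold difference for the pair (mm9, chr2:13197965-13413503). Amn, its membrane partner amnionless, was at 17.6, 33.7 and 14.2 RPKM in the same order, and Lrp2, the megalin receptor that acts with both, was at 21.6, 41.7 and 20.5 RPKM. Dab2, the adaptor that links these receptors to clathrin, was at 70.3, 129 and 41.8 RPKM. For these 4 genes the KD-labelled library held the highest level and H2A.Z WT the lowest.

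Of the secreted proteins, Apoa4 (0.368 against 2.71 RPKM), Apoc2 (0.259 against 2.44) and Apom (2.22 against 5.09) were lower with Apoa1 and Apob. All but Apom lay below 1 RPKM in H2A.Z AP3 EBs and entered through the KD-labelled library alone. Apoa2, also a lipoprotein component, was the exception past the threshold, at 18.5 RPKM in H2A.Z AP3, 10.95 in KD-labelled and 14.1 in H2A.Z WT EBs. Apoe, the most abundant of the list, was at 712, 752 and 1009 RPKM in the same order and did not pass. Ihh, a hedgehog ligand made by visceral endoderm, was at 1.75 against 4.29 RPKM. Of genes more typical of parietal endoderm, Sparc was at 249 RPKM in H2A.Z AP3 and 408 in KD-labelled EBs, Pth1r at 17.7 and 32.6, and Plat at 3.81 and 7.58. The keratin genes Krt8 and Krt18, also used by trophectoderm, were at 25.8 against 41.7 and 37.3 against 68.4 RPKM.

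The basement membrane list had 14 genes tested, with 6 lower and none higher (median −0.55, interval −0.89 to −0.32). Lama1, the laminin α chain of the first embryonic basement membranes, was at 64.7 RPKM in H2A.Z AP3, 123 in KD-labelled and 69.0 in H2A.Z WT EBs. Lamb1 and Lamc1, its partner chains, were at 87.9, 160 and 107 RPKM and at 90.9, 144 and 97.9 RPKM. Col4a1 and Col4a2, the type IV collagen chains, were at 78.4, 144 and 90.9 RPKM and at 43.5, 81.6 and 52.3 RPKM. P4ha1, a collagen prolyl hydroxylase also induced by low oxygen, was at 28.4, 57.1 and 31.6 RPKM. In all 6 genes the H2A.Z WT level lay between the pair and nearer to H2A.Z AP3. Fn1 (77.8 against 71.5 RPKM), Nid2 (62.5 against 83.8) and Lama5 (19.5 against 21.7) did not pass.

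The 8 defining markers of extraembryonic endoderm, all counted already in the endoderm lists above, were tested, and 5 were lower in H2A.Z AP3 EBs. Afp entered through the KD-labelled library alone, and with the filter on the other 4 libraries 4 of 7 were lower. Their summed level was 158 RPKM in H2A.Z AP3, 313 in KD-labelled and 116 in H2A.Z WT EBs, and the 4 ESC markers found in the table summed to 836, 673 and 840 RPKM in the same order. By these sums the KD-labelled EBs held the most endoderm and the least ESC marker RNA of the 3. Dab2 and Cubn made up the largest parts of the endoderm sum, and Pou5f1 that of the ESC sum. Of the 20 core and naive pluripotency genes tested, 8 had a log2 ratio below 0 (list median 0.10), that is, a higher level in KD-labelled EBs. Whether the lines differed in the number of endoderm cells was not tested.

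**Figure D3:**
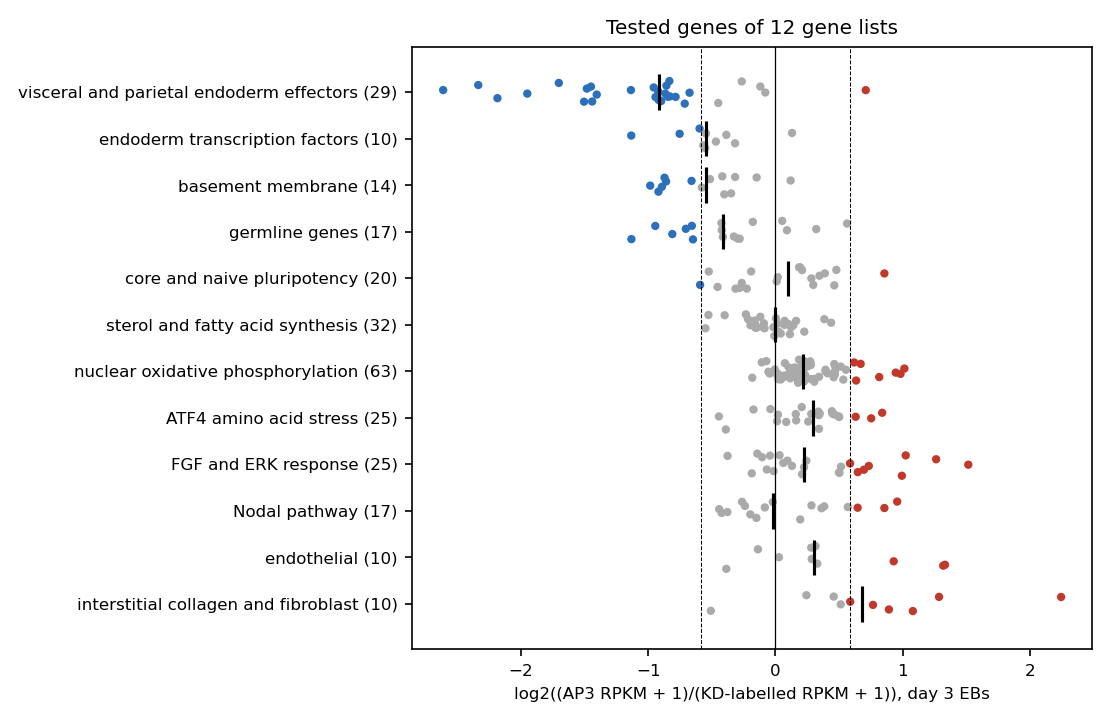
Log2 ratio of H2A.Z AP3 to KD-labelled EBs (x axis) for each tested gene of 12 lists, with the number tested in brackets; dashed lines mark 1.5-fold and vertical bars the list medians. The endoderm effectors sit mostly left of the lower dashed line (24 of 29), and the collagen and fibroblast genes mostly right of the upper one (6 of 10).

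Genes that respond to FGF and ERK signalling were higher in 8 of 25 cases and lower in none, with a median of 0.22 (interval 0.03 to 0.59), which was 0.50 among genes of at least 5 RPKM. Of the 8, Fosl1 entered through the H2A.Z AP3 library alone, and with the filter on the other 4 libraries 8 of 24 were higher. FGF signals through ERK kinases, which switch on ETS and AP-1 factors together with feedback inhibitors. None of the 4 ligand genes passed: Fgf4 was at 59.4 RPKM in H2A.Z AP3 and 51.2 in KD-labelled EBs, Fgf5 at 5.51 and 7.45, Fgf8 at 0.948 and 1.01, and Fgf15 at 3.51 and 3.98. The receptor gene Fgfr1 was at 18.5 and 12.7 RPKM and did not pass either. Past the threshold were ETS factors, Etv4 as above and Etv1 at 8.20 RPKM in H2A.Z AP3, 2.84 in KD-labelled and 4.78 in H2A.Z WT EBs. The immediate early genes Egr1 (9.52, 4.29 and 5.27 RPKM in the same order), Myc (5.61, 2.25 and 1.70), Junb (12.7, 8.11 and 8.06) and Fosl1 (1.08, 0.252 and 0.272) were higher too, though Junb no longer passed when the ratios were centred on their median. So were Spry4, a feedback inhibitor of receptor signalling, at 24.3, 14.7 and 14.3 RPKM, and Phlda1 at 8.80, 5.26 and 6.14 RPKM. H2A.Z AP3 EBs held the highest level of the 3 in all 8. The other ETS, immediate early and inhibitor genes of the list did not pass. Etv5, its most abundant ETS factor, was at 96.9 RPKM in H2A.Z AP3 and 90.7 in KD-labelled EBs. Fos (1.151 against 1.313), Jun (6.02 against 6.09) and Ier3 (9.21 against 9.71) lay slightly lower in H2A.Z AP3. Of these inhibitor genes Spry2 (66.1 against 46.0) and Dusp6 (33.8 against 23.6) differed most and Spry1 (12.54 against 12.24) least. Dusp4, Dusp5, Spred1 and Spred2 lay between.

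In the Nodal pathway 3 of 17 genes were higher and none was lower, with a median of −0.02. The ligand gene Nodal was at 16.4 RPKM in H2A.Z AP3 and 12.51 in KD-labelled EBs and did not pass. Lefty1, a secreted Nodal inhibitor and target, was at 147 RPKM in H2A.Z AP3, 75.1 in KD-labelled and 95.1 in H2A.Z WT EBs, whereas the related Lefty2 was at 56.3, 57.1 and 52.7 RPKM. Foxh1, the factor that brings SMAD proteins to Nodal targets, was at 39.2, 24.7 and 30.9 RPKM, and Gdf3, a ligand of the same family on chromosome 6, was at 61.5, 33.5 and 39.9 RPKM. Of 19 genes of the BMP pathway 3 were higher and none was lower. Id3, a BMP target, was at 7.67 against 3.12 RPKM, and Grem1, a secreted BMP antagonist, at 3.52 against 1.66. Gata2, a chromosome 6 gene that entered through H2A.Z AP3 alone, was at 1.58 against 0.447. With the filter on the other 4 libraries 3 of 18 were higher. In the Wnt list of 13, Dkk1, a secreted inhibitor, was lower at 3.48 against 7.03 RPKM and Wnt11 at 0.419 against 1.26, while Tcf7l1, on chromosome 6, was higher at 32.6 against 18.5. Wnt11 entered through the KD-labelled library alone, and with the other filter 1 of 15 was higher and 1 lower.

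Some regulators of endothelium, blood and neural tissue were higher in H2A.Z AP3 EBs at low levels, and other members of the same lists were lower without passing 1.5-fold. The endothelial list had 10 genes tested, 3 higher and none lower, but all 3 entered through the H2A.Z AP3 library alone. With the filter on the other 4 libraries 1 of 8 was higher, and among genes of at least 5 RPKM the list median was −0.14. Cdh5, the endothelial cadherin, was at 1.60 RPKM in H2A.Z AP3, 0.366 in KD-labelled and 0.248 in H2A.Z WT EBs, and Cd34 at 3.18, 0.662 and 1.11. Kdr, the main receptor for vascular endothelial growth factor, was at 1.36, 0.236 and 0.142 RPKM. With Lmo2 and Gata2, the latter on chromosome 6, it made up the 3 higher of 7 tested mesoderm and heart genes. All 3 also entered through H2A.Z AP3 alone. With the filter on the other 4 libraries 2 of 6 were higher, and the list median of 0.57 was 0.12 without a filter. In the neural list 2 of 7 were higher, Pax6 at 7.80, 3.19 and 6.05 RPKM and Sox1 at 9.70, 5.11 and 5.61 RPKM. On the other side lay Egfl7, the most abundant tested gene of the endothelial list (27.1 RPKM in H2A.Z AP3 against 29.9 in KD-labelled EBs), and Sox7 (4.56 against 6.27). So did Flt1 (0.815 against 1.21) and Msx2 (1.144 against 1.60) of the mesoderm list, and Olig2 (7.98 against 9.18) and Neurod1 (1.87 against 1.92) of the neural list. Below 1 RPKM in both libraries lay 18 of 25 mesoderm and heart genes, 11 of 18 neural genes and 4 of 14 endothelial genes.

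Interstitial collagen and fibroblast genes were higher in 6 of 10 tested and lower in none, with a median of 0.68 (interval 0.24 to 1.29). Of the 6, 4 entered through H2A.Z AP3 alone, and with the filter on the other 4 libraries 6 of 15 were higher and none was lower (median 0.46, against 0.35 without a filter). With pseudocounts of 0.1 and 0.001 RPKM the median was 1.296 and 1.43. Besides Mgp they were Bgn, a proteoglycan, at 6.01 RPKM in H2A.Z AP3, 1.88 in KD-labelled and 2.41 in H2A.Z WT EBs, and Col1a1 (2.57, 0.924 and 1.54), Col1a2 (2.36, 0.591 and 1.298), Col5a1 (1.19, 0.458 and 0.976) and Prrx1 (1.07, 0.217 and 0.691). Col5a1 no longer passed when the ratios were centred. In a separate list of epithelial and mesenchymal state 3 of 21 genes were higher and 3 lower, with a median of 0.05, and with the other filter 3 of 23 were higher and 3 lower. Vim, the intermediate filament of mesenchymal cells, was higher at 30.9, 14.5 and 17.2 RPKM, as were Cdh2 and S100a4, the last entering through H2A.Z AP3 alone, and Cldn6, Krt8 and Krt18 were lower. Thy1, a surface protein of fibroblasts and other cells, lay the other way at 3.56, 5.48 and 9.19 RPKM and did not pass. Of the 9 fibroblast markers 4 were tested, 3 of them higher, each through H2A.Z AP3 alone, and with the other filter 3 of 6 were higher. The sum of the 9 was 10.97 RPKM in H2A.Z AP3, 7.90 in KD-labelled and 14.0 in H2A.Z WT EBs, and without Thy1 it was 7.41, 2.41 and 4.77 RPKM in the same order. Postn was listed at 0 in all 3 libraries, and Lum, Dcn and Col3a1 lay below 1 RPKM in each. The part that feeder fibroblasts may have in these values was not tested.

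In the list of smooth muscle genes and targets of the SRF and YAP transcription regulators, 4 of 21 were higher and 2 lower. Anxa1 (4.08 against 1.06 RPKM) and S100a6 (3.47 against 1.12) were higher with Tagln and Anxa3, and Anxa2 (21.3 against 37.7) and Ankrd1 (0.306 against 1.21) were lower. Ankrd1 entered through the KD-labelled library alone, and with the filter on the other 4 libraries 4 of 19 were higher and 1 lower. Among 7 tested chemokine and cytokine genes Ptgs2 and Ccl2 (1.15 against 0.260 RPKM) were higher, both entering through H2A.Z AP3 alone, and with that filter 3 of 14 were higher. Blood and macrophage markers were scarce: 1 of 6 was tested, Cd68 at 6.31 against 10.6 RPKM, and Ptprc was listed at 0 in both libraries.

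Germline genes, many of which are kept silent by DNA methylation, were lower in 6 of 17 tested and higher in none, with a median of −0.41 (interval −0.66 to −0.18). Without a filter the median was −0.18, and among genes of at least 5 RPKM it was −0.56. Taf7l entered through the KD-labelled library alone, and with the filter on the other 4 libraries 5 of 16 were lower. Sycp3, a protein of the meiotic chromosome axis, was at 19.1 RPKM in H2A.Z AP3, 34.3 in KD-labelled and 46.0 in H2A.Z WT EBs. Hormad1, also of the axis, was at 1.18, 3.21 and 4.32 RPKM, and Taf7l, a germ cell transcription factor subunit, at 0.414, 2.10 and 1.24. Ooep, a maternal effect gene, was at 16.3, 27.3 and 33.9 RPKM, and Smc1b and Mov10l1 were at 2.31 against 4.22 and 1.142 against 2.36. H2A.Z AP3 EBs were lowest in all 6, and H2A.Z WT EBs were highest in each except Taf7l. None of the 14 genes for DNA methyltransferases and TET enzymes passed 1.5-fold, where 6.36% of all genes did.

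Of 20 core and naive pluripotency genes 1 was higher, Gdf3 on chromosome 6, and 1 lower, which is 10% of the list against 6.36% of all genes past 1.5-fold. Prdm14, which marks naive pluripotency and germ cells, was the lower one at 4.07 against 6.64 RPKM. Pou5f1 was at 456 RPKM in H2A.Z AP3, 358 in KD-labelled and 448 in H2A.Z WT EBs, and Sox2 was at 160, 141 and 186 RPKM. Zfp42 (169 against 122) and Klf2 (33.3 against 48.3) did not pass either. Of 15 formative epiblast genes Cldn6, a tight junction protein also made by early endoderm, was the single one past 1.5-fold (6.67%), at 64.4 against 105 RPKM.

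None of 32 sterol and fatty acid synthesis genes passed, nor any of 15 genes of the H3K4 methyltransferase complexes, where 6.36% of all genes did. Of 26 Polycomb genes Phc1 alone (3.85%) was past 1.5-fold. It was at 181 RPKM in H2A.Z AP3, 96.9 in KD-labelled and 136 in H2A.Z WT EBs, and it lies on chromosome 6. Of 25 genes of the ATF4 amino acid response 3 were higher (Cth, Mthfd2 and Slc7a5, with a list median of 0.30), of which Mthfd2 lies on chromosome 6. Of 63 nuclear genes of oxidative phosphorylation 7 were higher (median 0.22, interval 0.17 to 0.28), of which Ndufa4, Ndufa5 and Ndufb2 lie on chromosome 6. These were 12% and 11.1% of the lists, against 3.25% higher among all genes. Off chromosome 6, 2 and 4 genes of the lists were higher. The median of 77 ribosomal protein genes was 0.12, with Rpl32, on chromosome 6, past the threshold, against 0.13 for all genes over 100 RPKM off chromosome 6. Of 22 p53 target genes Gadd45a was higher (41.4 against 19.4 RPKM, on chromosome 6) and Polk lower, together 9.09% of the list. Of 39 Hox genes 3 were tested, and Hoxa5 on chromosome 6 was past 1.5-fold at 1.24 against 0.405 RPKM, entering through H2A.Z AP3 alone, and with the filter on the other 4 libraries none of 2 passed. The 5 tested genes of the 9 that the study singled out in its RNA-Seq data had log2 ratios between −0.20 and 0.16.

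Genes marked at their promoters in ESCs by H3K4me3 with H3K27me3, called bivalent, are mostly developmental regulators held at low expression. In the part of the mark table used here, which lies almost wholly on chromosomes 1, 2 and 19, 116 of 337 bivalent genes were tested, 13 were higher, 12 were lower and the median was −0.03 (interval −0.12 to 0.03). Of 1208 tested genes with H3K4me3 alone 26 were higher and 37 lower, with a median of 0.00. The shares past 1.5-fold were 21.6% of the bivalent and 5.22% of the H3K4me3-only genes, at median levels of 2.43 and 11.5 RPKM, and 10 of the 25 bivalent calls entered through 1 library alone. With the filter on the other 4 libraries 10 of 110 bivalent genes were higher and 9 lower, against 26 and 34 of 1195 genes with H3K4me3 alone. Whether the shares differ at equal levels was not tested. The study's probe panel holds developmental regulators together with pluripotency, housekeeping and control genes. Of its genes 56 were tested, 7 higher and 5 lower, with a median of 0.05 (interval −0.11 to 0.19). These calls were 21.4% of those tested, against 6.36% of all genes. Cd34, Cdh5 and Hoxa5, 3 of the 7, entered through H2A.Z AP3 alone, Gapdh and Hoxa5 lie on chromosome 6, and with the filter on the other 4 libraries 5 of 55 were higher and 5 lower.

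Genes of chromosome 6 were higher as a group in H2A.Z AP3 EBs. The median log2 ratio of its 547 tested genes was 0.30 (interval over genes 0.27 to 0.33), a 1.23-fold difference, and 460 of them (84.1%) were above 0. With genes below 1 RPKM in both libraries included, the median was 0.054. Of these genes 78 were higher and 1 was lower, so that 20.1% of all higher genes came from a chromosome with 4.58% of the genes tested. The medians of 18 other chromosomes lay between −0.04 and 0.04, and that of chromosome 8 was 0.09 (interval 0.07 to 0.12). In 10 windows of 15 Mb along chromosome 6 the median ran from 0.16 to 0.39. It rose with expression from 0.18 for genes with a mean of 1 to 3 RPKM to 0.48 above 100 RPKM, where the genes of other chromosomes had medians of −0.04 and 0.13. Gapdh, a glycolytic enzyme often used as a reference gene, lies on chromosome 6 and was at 1859 RPKM in H2A.Z AP3, 1221 in KD-labelled and 1246 in H2A.Z WT EBs.

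The same chromosome stood out in ESCs, whose AP3 and KD-labelled libraries are others than those of the EBs, with a median of 0.30 (interval 0.26 to 0.34) against −0.02 to 0.05 on the 18 other chromosomes. Against H2A.Z WT EBs the chromosome 6 median was 0.22 for H2A.Z AP3 and −0.08 for KD-labelled EBs, and in ESCs the values were 0.14 and −0.12. These ratios share libraries with each other. Chromosome number was not measured in the files used here, and its part in the ratios was not tested. Without chromosome 6, 5.98% of 11396 genes passed 1.5-fold, 310 higher (2.72%) and 371 lower (3.26%). The collagen and fibroblast median was then 0.55 with 4 genes higher, while the counts for endoderm effectors, basement membrane and FGF and ERK genes involve no gene of chromosome 6.

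**Figure D4:**
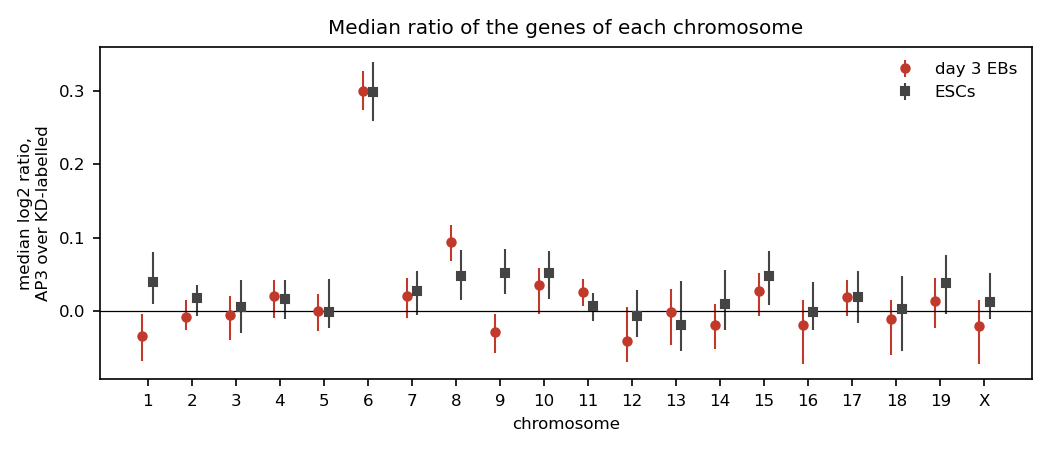
Median log2 ratio of H2A.Z AP3 to KD-labelled libraries (y axis) for the tested genes of each chromosome (x axis), in day 3 EBs (circles) and ESCs (squares), with 95% intervals over genes. Chromosome 6 is at 0.30 in both, and chromosome 8 is next in EBs at 0.09.

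The same pair of lines was also sequenced as ESCs, and there 1435 of 12163 genes tested differed by more than 1.5-fold (11.8%), 935 higher in H2A.Z AP3 (7.69%) and 500 lower (4.11%). Of 11573 genes tested at both days, 79 were higher at both, which is 21.9% of those higher in EBs and 10.4% of those higher in ESCs, where 6.54% of all these genes were higher in ESCs. Of the 79, 18 lie on chromosome 6. Lower at both days were 25 genes (8.45% of those lower in EBs and 5.88% of those lower in ESCs; 3.67% of all were lower in ESCs). Another 93 genes passed in opposite directions, 60 of them higher in ESCs and lower in EBs (20.3% of those lower in EBs). Pearson's r of the 2 ratios across the 11573 genes was −0.05, given as a description, since genes are not independent and the libraries of a line come from the same cells.

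Some endoderm and basement membrane genes passed 1.5-fold in opposite directions, among them Cubn, Dab2, Amn, Gata4, Lama1, Lamb1, Col4a1 and Col4a2. Of the other basement membrane genes, Lamc1 and P4ha1 passed in EBs only, and Nid1, Serpinh1 and P4ha2 in ESCs only. In ESCs 12 of 21 tested endoderm effectors were higher in H2A.Z AP3 and none was lower, with a median of 0.77 (interval 0.11 to 1.01), 2 of the 12 having entered through H2A.Z AP3 alone, and 7 of 14 basement membrane genes were higher (median 0.63, interval 0.39 to 1.15). Cubn was at 3.95 RPKM in KD-labelled ESCs and 93.3 in KD-labelled EBs, against 12.03 and 34.6 RPKM in H2A.Z AP3. Dab2 was at 10.2 RPKM in KD-labelled and 22.4 in H2A.Z AP3 ESCs, against 129 and 70.3 in EBs. Lama1 was at 22.8 RPKM in KD-labelled and 65.2 in H2A.Z AP3 ESCs, and its level in H2A.Z AP3 EBs, 64.7, was close to that in the ESCs. Gata4 was at 4.94 and 12.1 RPKM in ESCs and at 23.2 and 13.3 in EBs. The KD-labelled line thus began with the lower level of Cubn, Dab2, Lama1 and Gata4 and ended with the higher one.

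Of the interstitial collagen and fibroblast genes 9 of 17 tested were higher in H2A.Z AP3 ESCs and none was lower (median 0.61, interval 0.43 to 0.97). Of the 9, 2 entered through H2A.Z AP3 alone. Col1a1, Col1a2, Col5a1, Bgn and Prrx1 passed at both days, whereas Mgp passed in EBs only and Thy1 lay below 0 at both. Vim, Slpi, Cebpd, Ptgs2, Anxa1 and Etv4, from outside this list, also passed at both days. The fibroblast markers summed to 54.6 RPKM in H2A.Z AP3, 27.0 in KD-labelled and 32.7 in H2A.Z WT ESCs, above their sums in EBs. Among chemokines and cytokines 14 of 16 tested were higher in H2A.Z AP3 ESCs (median 1.17), 3 of them through that library alone. The FGF and ERK list differed between days, with 3 higher and 6 lower of 24 in ESCs, 2 of the lower ones entering through the KD-labelled library alone. Lefty1 was at 10.9 RPKM in H2A.Z AP3, 68.4 in KD-labelled and 47.8 in H2A.Z WT ESCs, the opposite order to that in EBs.

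Replication-dependent histone genes, whose transcripts mostly lack a poly(A) tail, were lower in H2A.Z AP3 ESCs in 39 of 54 tested (median −0.92), 21 of them entering through the KD-labelled library alone, whereas in EBs 4 of 40 were higher, none was lower and the median was 0.27 (interval 0.22 to 0.34). The copies of these genes are near-identical and the assignment of reads among them is uncertain. Sterol and fatty acid synthesis genes, which did not differ by 1.5-fold in EBs, were lower in 7 of 32 in ESCs (median −0.39, interval −0.54 to −0.31).

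**Figure D5:**
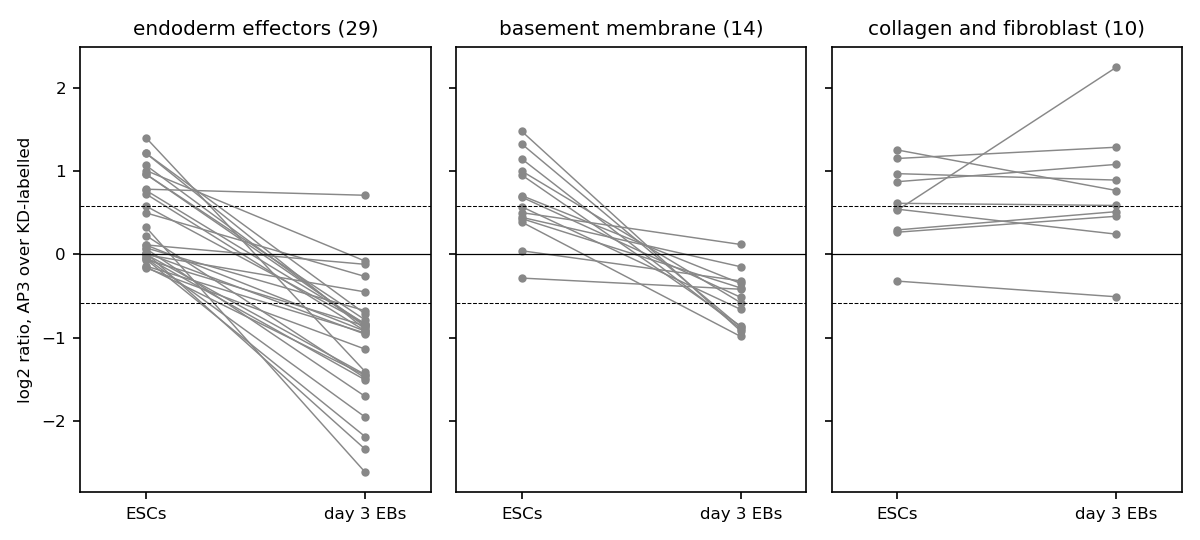
Log2 ratio of H2A.Z AP3 to KD-labelled libraries (y axis) in ESCs and day 3 EBs (x axis), 1 line per gene, for the genes tested in EBs of 3 lists; dashed lines mark 1.5-fold. The lines of the endoderm effectors (29 genes) and basement membrane genes (14 genes) mostly fall from above 0 to below it, and those of the collagen and fibroblast genes (10 genes) mostly stay above 0.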

How the data were processed

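Poly(A) RNA of 3 mouse ESC lines was sequenced as ESCs (day 0) and EBs (day 3), 1 library for each of 6 conditions. The authors deposited RPKM values per gene, made from single-end reads aligned to mm9; the submitters' processing notes name TopHat 1.14, Bowtie 0.12.7 and Cufflinks 1.3.0. RPKM are not counts, they depend on the transcript lengths Cufflinks used, and multi-mapping reads may be shared among near-identical genes. The authors' log2 ratios in the same table hold their own comparisons and were not used. Columns were matched to samples by name, gene starts were raised by 1, 24 symbols had been turned into dates by a spreadsheet, and 420 entries share a symbol with another.

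Log2 ratios used a pseudocount of 1 RPKM, genes needed at least 1 RPKM in either library, and 1.5-fold (0.58 on the log2 scale) is the study's threshold. The text names the 15 genes with the highest and the 15 with the lowest ratio, leaving out small RNAs and unnamed transcripts, members of the gene lists that passed 1.5-fold or were abundant, H2afz and H2afv, and the genes the study singled out. The members and lists were chosen with earlier results of these data known. List medians carry 95% binomial order-statistic intervals over genes. Depth was estimated from low RPKM steps of genes with 1 transcript over 1500 bases, and gave 16.9 to 29.5 M reads a library. Folds carry Clopper-Pearson intervals from estimated reads. Hairpins and transcripts were read from the study's supplementary text and the GENCODE annotation of the same assembly. The scripts were tested on simulated data. Versions were Python 3.11.15, scipy 1.17.1, numpy 2.4.6, matplotlib 3.10.9 and pandas 2.3.3. The alternatives were pseudocounts of 0.1 and 0.001 RPKM, no filter, a filter of 5 RPKM, a filter on the 4 libraries not compared, centring on the median, summing entries per symbol and a 2-fold threshold. Added after seeing the data were leaving out chromosome 6 and leaving out small RNA entries.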

Additional observations from a re-analysis of the deposited data

Results flagged for a closer look

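The median log2 ratio of H2A.Z AP3 to the KD-labelled line over the visceral and parietal endoderm effectors was −0.92 in EBs and 0.77 in ESCs, so the list lay on opposite sides of 0 at the 2 days. With 1 library for each line and day this difference was not tested.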

How the results depend on the processing

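With a pseudocount of 0.1 RPKM 1279 genes passed 1.5-fold (627 higher, 652 lower) and 193 passed the same way at both days, against 104 as reported, the collagen and fibroblast median was 1.296 and that of chromosome 6 was 0.34. With 0.001 RPKM these values were 1347 (657 and 690), 216, 1.43 and 0.34. With a filter of 5 RPKM they were 464 genes (246 and 218), 53 at both days and 0.33 for chromosome 6, and at 2-fold 154 (71 and 83) and 18. Without a filter the chromosome 6 median was 0.054. The median of 2 2-cell-like genes, 0.01 as reported, was −0.018 without a filter and −0.0097 when centred, that of the 5 genes the study singled out was 0.051 without a filter, and that of 3 Hox genes, 0.41 as reported, was −0.27 without chromosome 6, an alternative added after seeing the data. The cause of these shifts was not tested, but fewer or more genes enter under the filters. Of 133 list members and named genes none changed sign under the alternatives run, 4 (Col5a1, Junb, Esx1 and Lfng) no longer passed when centred, and the 30 named extremes passed wherever they were tested. Leaving out 1 library was not possible with 1 library per condition. No paired analysis was possible because each line and day has 1 library and no replicate numbers. Depth limits genes near 1 RPKM, where few reads stand behind a value.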
